A study of Mus musculus with 6 samples.

Results

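The metabotropic glutamate receptors described here were 7 genes taken by name, Grm2, Grm3, Grm4, Grm5, Grm6, Grm7 and Grm8, out of 55341 genes counted in every library. The genes were followed in RNA-seq libraries of cultured mouse cerebellar granule neurons (CGNs) that received the vehicle DMSO (n = 3) or GSK-126 (n = 3), a small molecule inhibitor of EZH2. EZH2 is the enzyme that places trimethylation on lysine 27 of histone H3, a mark of repressed promoters, and the comparison asks which receptor genes depend on its activity in CGNs. The labels state the agent and the number of the replicate but neither dose nor day in culture, and they call the source cerebellum where the titles say CGN. The study describes RNA-seq after GSK-126 was added on an earlier or on a later day before a common harvest day. The labels do not say which of these applies here. According to the study's methods, granule neuron precursors were isolated on Percoll gradients from CD1-IGS pups around the end of the first postnatal week. The methods add that cytosine arabinoside was given to stop the division of non-neuronal cells, and that a replicate was a culture from the pooled cerebella of litters. No transgene or mutant allele was named for either group.

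Metabotropic glutamate receptors are G protein-coupled receptors of class C that bind glutamate in a large extracellular domain. Group I receptors, which include the product of Grm5, couple to Gq and activate phospholipase C, which raises intracellular calcium. Group II (Grm2 and Grm3) and group III (Grm4, Grm6, Grm7 and Grm8) receptors couple to Gi and Go, lower adenylyl cyclase activity and act in part through G protein beta-gamma subunits on ion channels. In the cerebellum the product of Grm4 sits on the presynaptic terminals of parallel fibres, the axons of granule neurons, where it reduces glutamate release.

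The 7 genes lie on 6 chromosomes of GRCm38, and only Grm7 and Grm8 share one, chromosome 6. Grm4 spans chr17:27422387-27521403 on the minus strand, Grm5 chr7:87584168-88134907 on the plus strand, and Grm3 chr5:9485541-9725170 on the minus strand. Grm7 spans chr6:110645581-111567230 on the plus strand, Grm8 chr6:27275119-28135178 on the minus strand, Grm2 chr9:106643095-106656082 on the minus strand, and Grm6 chr11:50850685-50866208 on the plus strand. Exonic overlap with a gene on the opposite strand covered 9.60% of the exon bases of Grm2 (Gm28111), 11.0% of those of Grm6 (Gm12660) and 2.21% of those of Grm7 (Gm20387). The strand setting of the counting is not given in the sources used here, so reads in those stretches could not be assigned to 1 of the overlapping genes. Reads were unlikely to be split between the receptors themselves, since of all stretches of 31 bases in their exons Grm4 and Grm6 shared 5 and no other pair shared any.

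Grm4 is the gene on which the results turn, and a primer pair for PCR on its last exon was designed for it. The 2 primers are shown because they place that assay on the transcript, and each is written from its 5′ end in lower case.

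Grm4 forward: cttccttagccagggtctcc
Grm4 reverse: catcccttcggacacagttt

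The forward primer matched chr17:27422574-27422593 and the reverse primer chr17:27422472-27422491 (GRCm38), which gives a product of 122 bases. Both lie in the 3′ untranslated part of exon 9 of 9, in 1 of the 8 annotated Grm4 transcripts, whereas the read counts below cover the exons of all 8. Neither primer matched a transcript of the other 6 genes.

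The promoters of Grm8 and Grm6 are shown because H3K27me3 is known to collect at CpG-rich promoters and because the Grm8 start held the most CpG among these receptors and the only Grm6 start held few. They are 300 bases from the RefSeq table of GRCm38.p6, from 250 bases before to 50 bases after an annotated start, with every CpG in capitals. RefSeq entries were found for 5 of the 7 genes, the exceptions being Grm4 and Grm5.

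Grm8, chr6:28135097-28135396, minus strand: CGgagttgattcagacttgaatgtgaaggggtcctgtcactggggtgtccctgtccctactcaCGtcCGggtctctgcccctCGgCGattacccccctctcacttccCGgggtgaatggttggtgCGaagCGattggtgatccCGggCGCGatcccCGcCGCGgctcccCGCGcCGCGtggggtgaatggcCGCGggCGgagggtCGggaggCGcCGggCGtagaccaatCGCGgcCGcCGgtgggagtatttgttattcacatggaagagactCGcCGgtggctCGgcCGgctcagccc
Grm6, chr11:50850435-50850734, plus strand: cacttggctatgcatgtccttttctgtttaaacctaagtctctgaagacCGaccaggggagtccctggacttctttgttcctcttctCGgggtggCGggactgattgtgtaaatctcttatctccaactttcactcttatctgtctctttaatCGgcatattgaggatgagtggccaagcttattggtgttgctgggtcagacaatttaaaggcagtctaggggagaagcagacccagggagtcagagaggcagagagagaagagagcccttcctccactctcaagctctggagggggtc

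This Grm8 promoter held 33 CpG, more than 91.4% of the 32851 promoters in the table, while the Grm6 promoter held 4, more than 31.4% of them, against a median of 7. Grm8 has other annotated starts, with 10 and 2 CpG. Grm2 had 22 CpG, Grm3 had 11, and the Grm7 starts had 10 and 15. Both genes whose promoters are printed were at 19 counts or fewer in every library, as given with their levels.

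The libraries held from 8058760 to 12047837 counts over genes, and 16343 genes passed the filter on low counts. Levels are given as CPM, which are counts scaled to a common library size with TMM factors. Of the 7 receptor genes 5 passed the filter, and Grm2 and Grm6 did not. Libraries with the same replicate number deviated from their group means together (correlations across genes of 0.351, 0.503 and 0.517), so each comparison is given with and without the replicate number as a block. Of 13 granule neuron markers all were detected in every library. RNA of other cells was present as well, with Gfap leading the astrocyte markers and Col1a1 leading the fibroblast markers. Bulk libraries cannot tell fewer cells of a type from less RNA per cell.

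The transcript of Grm4 stood at 0.641 to 0.677 of its DMSO level under GSK-126 in the 3 pairs, and it was the only 1 of the 5 receptor genes tested that passed an adjusted p-value of 0.05, in the fit with the replicate block. Without the block 0 of the 5 passed, as did 0 of the 16343 genes tested (0.00%), of which 981 had an unadjusted p below 0.05 (Grm7 alone among the receptors, at 0.0404). With the block 1 of the 5 was lower and 0 were higher, against 1.42% of all genes called lower and 2.23% called higher. The median log2 fold change with the block was -0.25 over the 5 receptor genes and -0.00 over all genes, and 4 of the 5 had a negative value. Grm7 was the only member whose groups did not overlap in CPM, which 10.9% of all genes also showed. Among the 5 genes tested Grm3, Grm4 and Grm7 were lower under GSK-126 in 3 of 3 pairs, as were 19.3% of all genes tested, and Grm2, which was not tested, was lower in 3 of 3 as well.

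**Figure D1:**
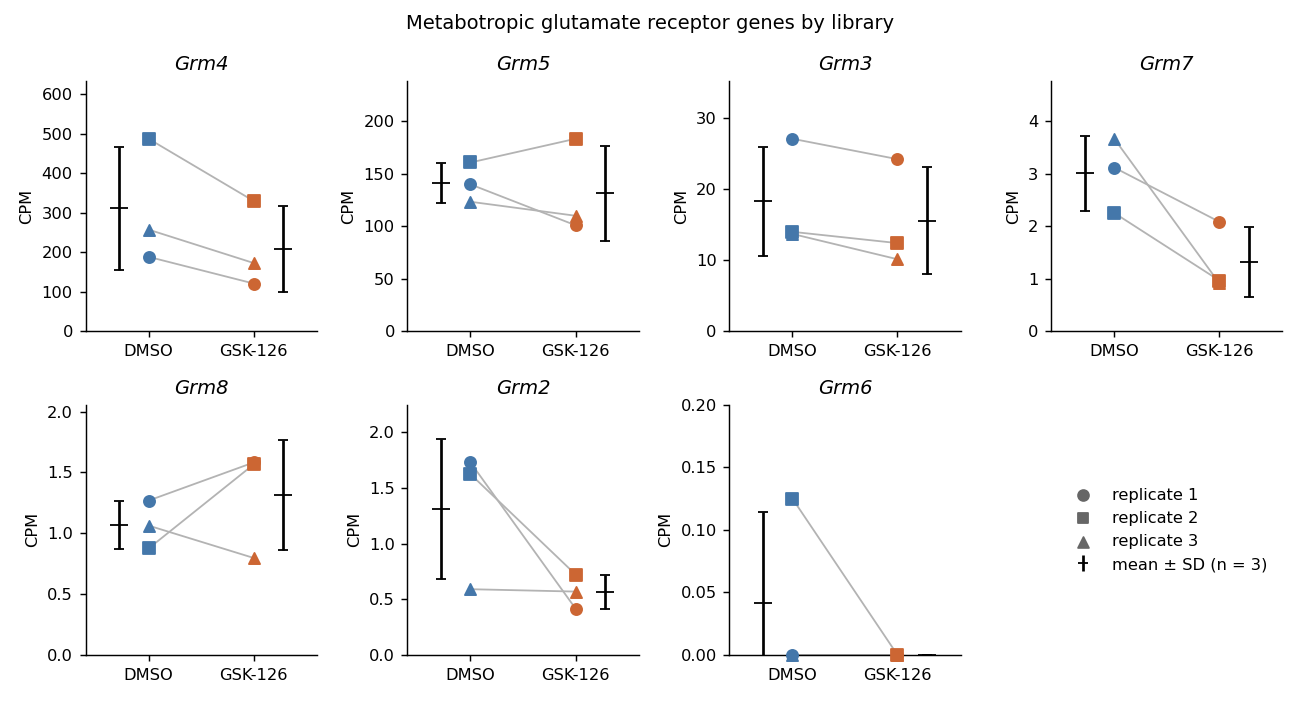
CPM (vertical axis, linear from 0, a separate scale for each gene) of the 7 receptor genes in the DMSO and GSK-126 libraries, with grey lines joining libraries of the same replicate number and black bars giving mean ± SD (n = 3). Grm2, Grm3, Grm4 and Grm7 are lower under GSK-126 in 3 of 3 pairs, Grm3 keeps its highest level in replicate 1 in both groups, and Grm6 has a read in 1 library only.

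Among the 7 genes Grm4 had the highest level and Grm6 the lowest. Levels of different genes were compared as CPM per kilobase of merged exons. In DMSO this was 52.1 ± 26.2 for Grm4, 13.8 ± 1.83 for Grm5 and 5.99 ± 2.51 for Grm3 (mean ± SD, n = 3). The remaining genes were far lower, at 0.511 ± 0.121 for Grm7, 0.269 ± 0.129 for Grm2, 0.108 ± 0.0199 for Grm8 and 0.00769 ± 0.0133 for Grm6. Neighbours in this order did not overlap in their ranges, except Grm2 and Grm8.

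Under GSK-126 the 3 leading genes kept their order, with 34.8 ± 18.2 for Grm4, 12.8 ± 4.41 for Grm5 and 5.11 ± 2.48 CPM per kilobase for Grm3. Below them, Grm7 (0.224 ± 0.112), Grm8 (0.133 ± 0.0453) and Grm2 (0.116 ± 0.0313) overlapped with their neighbours. Divided by the longest coding region instead, the order in DMSO was the same for 7 of 7 genes, but under GSK-126 Grm4 and Grm5 overlapped and Grm8 and Grm7 changed places.

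**Figure D2:**
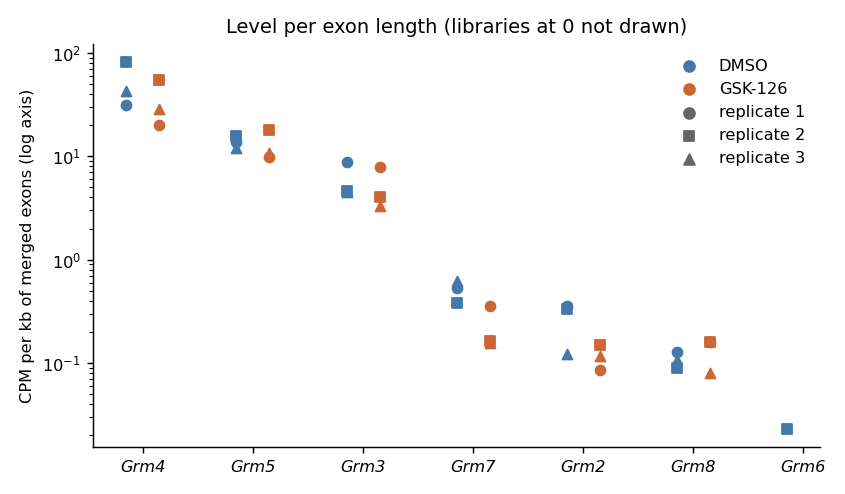
CPM per kilobase of merged exons (log axis) for each receptor gene and library, ordered by the mean in DMSO, with libraries at 0 not drawn. Grm4, Grm5 and Grm3 lie above 3 CPM per kilobase in every library, and the other 4 genes lie below 1.

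Grm5, the group I receptor gene measured here, was the most even of the 3 abundant genes in DMSO. It had 1213, 1286 and 1044 counts in DMSO replicates 1, 2 and 3, or 140, 161 and 123 CPM. The GSK-126 libraries held 1212, 1522 and 966 counts, or 101, 183 and 110 CPM. The groups overlapped, and replicate 2 was the highest in both. Grm5 was lower in 2 of 3 pairs and higher in replicate 2, with ratios of 0.721, 1.14 and 0.892. By edgeR the change on the log2 scale was -0.11 (SE 0.232, adjusted p = 0.951). The block gave -0.15 (SE 0.131, adjusted p = 0.639). Its sign turned when DMSO replicate 2, GSK-126 replicate 1 or GSK-126 replicate 3 was left out, with values of 0.01, 0.053 and 0.01.

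Of the group II genes Grm3, which is found in astrocytes as well as in neurons, was present at a moderate level. Its counts were 235, 112 and 116 in DMSO (27.1, 14.0 and 13.7 CPM) and 291, 103 and 89 in GSK-126 (24.2, 12.4 and 10.1 CPM). Replicate 1 had close to 2 times the level of the others in both groups, so the spread between replicates was larger than any difference between treatments. Within pairs the ratios were 0.894, 0.886 and 0.740. The log2 fold change was -0.22 (SE 0.391, adjusted p = 0.936). The block gave -0.25 (SE 0.177, adjusted p = 0.530). Without the block the value turned to 0.19 when DMSO replicate 1 was left out and to 0.01 when GSK-126 replicate 3 was.

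The summed CPM of 10 astrocyte and Bergmann glia markers was also highest in replicate 1, at 7905, 2728 and 4893 in DMSO and 8148, 2725 and 4231 in GSK-126. In the other replicates the order differed, since in DMSO the marker sum of replicate 3 was above that of replicate 2 while Grm3 was level between them. Over the 6 libraries, which share pairs and treatment, the log2 CPM of Grm3 correlated with that of Gja1 at r = 0.921, Aqp4 at 0.887, Slc1a3 at 0.848, Fabp7 at 0.739 and Gfap at 0.673. With the granule neuron genes Gabra6, Slc17a7 and Neurod1 r was -0.02, -0.09 and -0.19. The part of astrocyte RNA in the Grm3 values was not tested.

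Grm2, a presynaptic receptor known in the cerebellum from Golgi and unipolar brush cells, had 15, 13 and 5 counts in DMSO and 5, 6 and 5 in GSK-126. This was 1.73, 1.63 and 0.591 CPM against 0.416, 0.723 and 0.569 CPM. DMSO replicates 1 and 2 stood above the other 4 libraries, and the groups overlapped through DMSO replicate 3. The Poisson 95% interval of the highest DMSO count ran from 8.40 to 24.7 counts and that of the highest GSK-126 count from 2.20 to 13.1, for counting error only. Fitted without the filter on low counts its log2 fold change was -1.20 (adjusted p = 0.847), and -1.12 with the block (adjusted p = 0.873). Markers of Golgi and other GABAergic interneurons summed to 374, 263 and 344 CPM in DMSO and 282, 234 and 262 CPM in GSK-126. This sum was lower in 3 of 3 pairs. Of these markers Slc32a1 was called lower with the block but not without pair 2 (adjusted p = 0.130) or pair 3 (adjusted p = 0.248). The unipolar brush cell sum ran from 115 to 177 CPM and from 120 to 165 CPM, with Eomes called lower but not without pair 1 (adjusted p = 0.0603) or pair 2 (adjusted p = 0.155). The other unipolar brush cell markers did not pass, and Lmx1a went the other way (1.18, adjusted p = 0.291, higher in 3 of 3 pairs with no overlap between groups), with Otx2 at 0.07 and Calb2 at -0.03. Their part in the Grm2 counts was not tested.

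Grm4, the group III gene of parallel fibre terminals, had 1634, 3901 and 2179 counts in DMSO replicates 1, 2 and 3, or 188, 488 and 257 CPM. In GSK-126 it had 1451, 2739 and 1517 counts, or 121, 330 and 173 CPM. Replicate 2 was the highest and replicate 1 the lowest in both groups, and the groups overlapped because GSK-126 replicate 2 lay above DMSO replicates 1 and 3. Within pairs the GSK-126 library was lower in 3 of 3, and the CPM ratios of 0.641, 0.677 and 0.671 were close together. The log2 fold change was -0.58 (SE 0.425, adjusted p = 0.841) without the block. With the block it was -0.59 (SE 0.0990, adjusted p = 0.00991), a fold of 0.663.

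This call held with the block when pair 1 was left out (adjusted p = 0.00485) and was lost without pair 2 (0.0658) and without pair 3 (0.0504), while the value stayed between -0.60 and -0.57. Without the block 1 library moved the value more: leaving out DMSO replicate 2 gave -0.09, and leaving out GSK-126 replicate 2 gave -1.08 (adjusted p = 0.390). The study had already named Grm4 among the late CGN genes whose induction was impaired by GSK-126 in culture. The direction of Grm4 here is therefore not independent evidence.

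**Figure D3:**
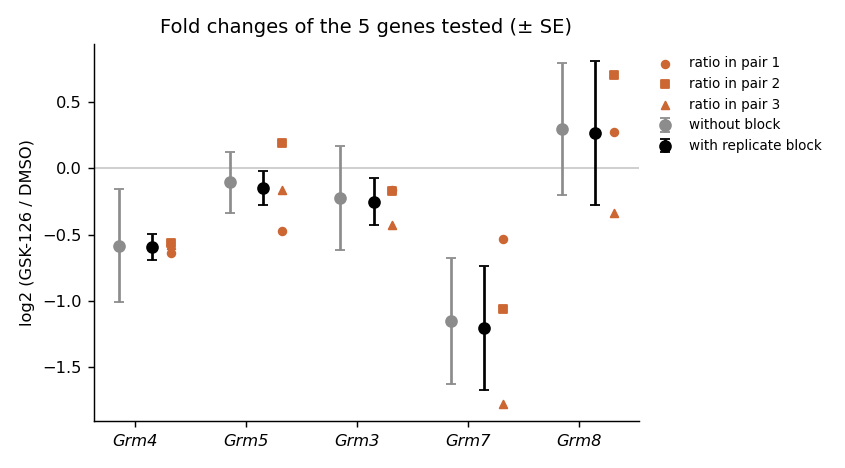
Log2 ratio of GSK-126 to DMSO for the 5 receptor genes tested, as fitted by edgeR without (grey) and with (black) the replicate block, with bars of 1 SE, and as the ratio within each pair of libraries (orange symbols, log2 CPM after adding a prior count of 2). The 3 pair ratios of Grm4 lie between -0.64 and -0.56, while those of Grm5 and Grm8 fall on both sides of 0.

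The summed level of markers of granule neurons, the cells in which Grm4 is known to act, was lower in 3 of 3 pairs as well, though the markers did not all go one way. Of the 13 markers 7 were called lower with the block (Neurod1, Etv1, Cbln1, Cbln3, Gabra6, Slc17a7 and Rbfox3) and 0 higher. Over all genes tested the shares called were 1.42% lower and 2.23% higher. The markers had a median log2 fold change of -0.53, against -0.00 over all genes. Of the 6 that did not pass, Zic1 had -0.37 (adjusted p = 0.0535), Zic2 -0.27 (adjusted p = 0.212) and Reln -0.13 (adjusted p = 0.708). The other 3 had values above 0, at 0.39 for Barhl1 (adjusted p = 0.213, groups not overlapping), 0.04 for Pax6 and 0.00 for Neurod2. Without the block 0 of the 13 passed, and with it 8, 4 and 5 were lower when pair 1, 2 or 3 was left out. Their summed CPM was 5407, 7598 and 5857 in DMSO and 3841, 6073 and 4495 in GSK-126. Replicate 2 was again highest in both groups, and the ratio within pairs was 0.710, 0.799 and 0.768.

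Set against this sum, Grm4 made up 3.49%, 6.42% and 4.40% of it in DMSO and 3.15%, 5.43% and 3.84% in GSK-126. The Grm4 ratio of each pair was thus 0.903, 0.847 and 0.874 of the ratio of the marker sum, still below 1 in 3 of 3 pairs but nearer to it than the Grm4 ratio itself. Zic1 led this sum. Over the 6 libraries, which share pairs and treatment, the log2 CPM of Grm4 correlated with Neurod1 at r = 0.906, Slc17a7 at 0.876 and Gabra6 at 0.861. With the astrocyte genes Gfap, Slc1a3, Aqp4, Gja1 and Fabp7 r was -0.928, -0.777, -0.753, -0.713 and -0.669. The share of granule neurons in each culture was not measured, and its part in the Grm4 difference was not tested. Fibroblast markers summed to between 4484 and 5942 CPM in DMSO and between 6434 and 6933 CPM in GSK-126, with Col1a1 higher with the block (log2 fold change 0.46, adjusted p = 0.0359). The call of Col1a1 was lost without pair 1 (adjusted p = 0.0546) and without pair 2 (adjusted p = 0.244), while the other 3 fibroblast markers had values from 0.14 to 0.38 and did not pass. Endothelial and mural cell markers summed to 212, 174 and 248 CPM in DMSO and 285, 239 and 341 CPM in GSK-126, higher in 3 of 3 pairs, with 2 of 7 called higher (Flt1 and Pdgfrb), 0 lower and a median of 0.60. Of the astrocyte (10 tested), oligodendrocyte lineage (9 tested) and microglia (7 tested) markers 1 each was called higher and 0 lower, which were Gdf10, Cspg4 and C1qb. Of all genes tested 2.23% were called higher and 1.42% lower with the block. Oligodendrocyte lineage markers summed to 660, 447 and 697 CPM in DMSO and 828, 515 and 726 CPM in GSK-126. Microglia markers summed to 294, 224 and 368 CPM in DMSO and 580, 262 and 431 CPM in GSK-126. Both sums were higher in 3 of 3 pairs, while the astrocyte sum had pair ratios of 1.03, 0.999 and 0.865. When pair 1, 2 or 3 was left out, 3, 1 and 2 endothelial and mural cell markers were called higher. The numbers called higher were then 0, 0 and 2 for astrocyte, 1, 0 and 1 for oligodendrocyte lineage and 0, 1 and 2 for microglia markers. Without pair 1, 1 astrocyte marker was called lower. The part of these cells in the Grm4 difference was not tested either.

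**Figure D4:**
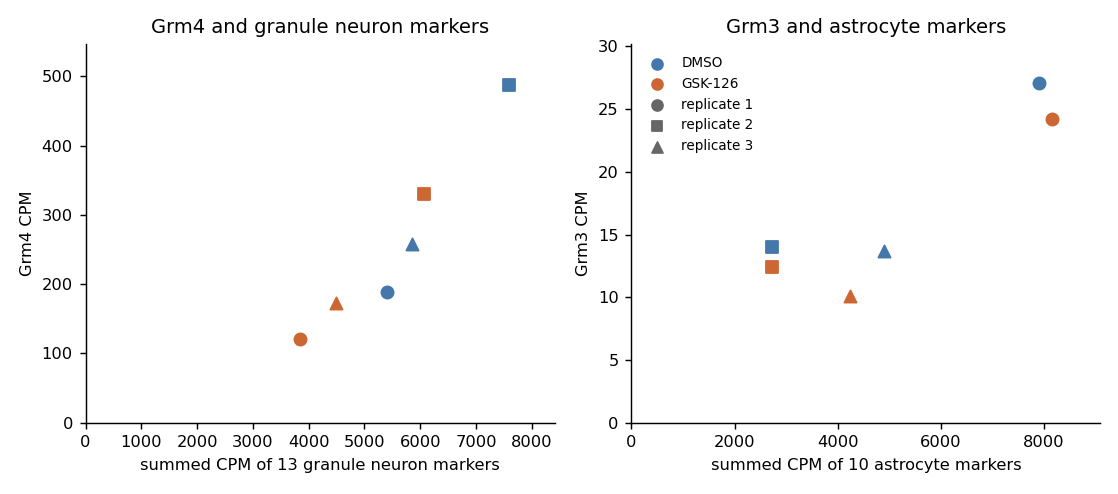
Left, Grm4 CPM against the summed CPM of 13 granule neuron markers in the 6 libraries. Right, Grm3 CPM against the summed CPM of 10 astrocyte and Bergmann glia markers, with colour giving the treatment and symbol the replicate number. Replicate 2 is highest for both measures on the left within each treatment, and replicate 1 is highest for both on the right.

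Relative to Grm5, whose reads come from the same libraries, Grm4 was also lower. The ratio of Grm4 to Grm5 counts was 1.35, 3.03 and 2.09 in DMSO and 1.20, 1.80 and 1.57 in GSK-126, lower in 3 of 3 pairs. Grm4 gave 52.1%, 73.1% and 64.4% of the reads of the 7 genes in DMSO and 48.3%, 62.4% and 58.5% in GSK-126. The share was lower under GSK-126 in 3 of 3 pairs, by less than it varied between DMSO replicates, and the groups overlapped.

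Grm7, a presynaptic receptor of the active zone with low affinity for glutamate, had 27, 18 and 31 counts in DMSO and 25, 8 and 8 in GSK-126. These are 3.11, 2.25 and 3.66 CPM against 2.08, 0.964 and 0.911 CPM. Every GSK-126 library lay below every DMSO library, narrowly so for GSK-126 replicate 1 and DMSO replicate 2, whose Poisson 95% intervals (1.35 to 3.07 and 1.33 to 3.56 CPM) overlapped. Within pairs the ratios were 0.668, 0.428 and 0.249. The log2 fold change was -1.15 (SE 0.477, adjusted p = 0.824). It was -1.21 in the fit with the block (SE 0.469, adjusted p = 0.217), so Grm7 was not called in either fit. Its value was larger in size than that of Grm4, and its SE with the block was as well, at 0.469 against 0.0990.

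Grm8, also a presynaptic group III receptor, had 11, 7 and 9 counts in DMSO and 19, 13 and 7 in GSK-126. This corresponded to 1.27, 0.875 and 1.06 CPM and to 1.58, 1.57 and 0.797 CPM. GSK-126 replicates 1 and 2 lay above and GSK-126 replicate 3 below all DMSO libraries. The log2 fold change was 0.30 (SE 0.500, adjusted p = 0.932). It was 0.27 in the fit with the block (SE 0.545, adjusted p = 0.867). Among the receptor genes tested it alone had a positive value in these fits.

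Grm6, the receptor of retinal ON bipolar cells, had 1 count in DMSO replicate 2 and 0 in the other 5 libraries. In those 5 libraries a count of 3, taken as a floor, was from 0.250 to 0.361 CPM. The Poisson 95% interval of a count of 0 reached further, to 3.69 counts or from 0.307 to 0.444 CPM. The single count in DMSO replicate 2 had a Poisson 95% interval reaching 0.697 CPM, and no fold is given.

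The genes whose levels ran most like those of each receptor over the 6 libraries were found by Pearson correlation of log2 CPM among 16342 other genes. They share depth, culture and treatment with it, so the coefficients describe these libraries alone. For Grm4 they were Epb41l1 (r = 0.998), Eef1a2 (0.998) and Ndrg4 (0.997), and 820 genes were above 0.9. Eef1a2, a translation elongation factor of neurons and muscle, had a log2 fold change of -0.65 with the block (adjusted p = 0.00886, and 0.0658 without pair 2). Epb41l1 (-0.35, adjusted p = 0.0811) and Ndrg4 (-0.27, adjusted p = 0.183) did not pass.

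For Grm5 the leading genes were Akap6 (0.994), Zbtb2 (0.994) and Slc6a15 (0.993), with 488 genes above 0.9. Those for Grm3 were Psmd1 (0.997), Apopt1 (0.993) and Ecm2 (0.992), with 185 above 0.9. None of these 6 genes passed the threshold with the block. The sparse gene Grm7 ran most like 4933407L21Rik (0.993), Tpgs1 (0.988) and Ppil6 (0.982), and Grm8 most like Kdm8 (0.992), Accs (0.982) and Gm26931 (0.978), with 54 and 53 genes above 0.9.

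The genes that act with these receptors were taken as 7 lists of 94 symbols, of which 91 were in the tables and 83 were tested. Without the block 0 of the 83 passed, with 6 at an unadjusted edgeR p below 0.05, against 981 of the 16343 genes tested. With the block 2 were higher and 1 was lower, together 3.61%, against 3.65% of all genes. Their median log2 fold change was -0.12, with 30 positive and 53 negative values, against -0.00 over all genes. By number of calls the pathway genes were thus at the background. By unadjusted edgeR p with the block, 26 of the 83 lay below 0.05. This was a larger share than the 2735 of all 16343 genes. The difference between these lists and all genes was not tested, and the lists were chosen with earlier results of these data known.

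Downstream of group II and III receptors, adenylyl cyclases had 1 of 8 tested genes called with the block. Adcy1, a calcium-stimulated cyclase of neurons, was lower, at 1293 ± 517 CPM in DMSO and 785 ± 311 in GSK-126 (log2 fold change -0.72, SE 0.0986, adjusted p = 0.00407). Like Grm4 it was lower in 3 of 3 pairs while its groups overlapped, with pair ratios of 0.561, 0.601 and 0.661, and its call was lost without pair 2 (-0.70, adjusted p = 0.0521). Among the GIRK channel subunits, potassium channel proteins opened by G protein beta-gamma, 0 of 3 passed with all pairs. Without pair 1, 1 was called lower. Kcnj3 had -0.42 (adjusted p = 0.0636), Kcnj9 had -0.61 (adjusted p = 0.104) and Kcnj6 had 0.13 (adjusted p = 0.701).

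Of 17 G protein subunits 0 passed. Gnao1, the Go alpha subunit abundant in brain, had a log2 fold change of -0.19 (adjusted p = 0.383) and Gnaq, the Gq alpha subunit of group I signalling, had 0.01 (adjusted p = 0.984). The Gi alpha subunit genes Gnai1, Gnai2 and Gnai3 had -0.23, 0.26 and 0.06 (adjusted p = 0.473, 0.277 and 0.845). Gnai2 was higher and Gnao1 lower in 3 of 3 pairs. Downstream of Gq, 0 of 15 phospholipase C and protein kinase C genes passed with the block, among them Plcb1 at 0.03 (adjusted p = 0.958), Plcb4 at -0.32 (adjusted p = 0.236) and Dgkz, a diacylglycerol kinase, at -0.44 (adjusted p = 0.136). Without pair 1, 1 gene of that list was called lower. The widest value of that list was Plcb2, chosen for naming after its value was seen, at 20 counts in DMSO and 86 in GSK-126 in all (1.88, adjusted p = 0.0972).

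Scaffolds and partners had 0 of 21 called with all pairs. Without pair 1, 1 was called higher and 2 lower. The Homer proteins, which tether group I receptors, had log2 fold changes with the block of -0.10 for Homer1 (adjusted p = 0.755), 0.49 for Homer2 (adjusted p = 0.0687) and 0.39 for Homer3 (adjusted p = 0.130). Homer2 did not overlap between groups, at 112 ± 4.79 CPM in DMSO and 160 ± 44.5 in GSK-126, which 10.9% of all genes also showed. In the same list Siah1a, with a lower level under GSK-126, did not overlap either (-0.38, adjusted p = 0.178). Partners of group III receptors were Elfn1 (-0.18, adjusted p = 0.790) and Elfn2 (-0.35, adjusted p = 0.860), postsynaptic proteins that bind these receptors across the synapse, and Pick1 (-0.34, adjusted p = 0.439), which binds the tail of the Grm7 product.

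Regulators of receptor signalling had 1 of 16 called. Rgs4, which speeds the GTPase of Gi and Gq alpha subunits, was higher with the block, at 16.1 ± 9.66 CPM in DMSO and 26.9 ± 11.2 in GSK-126 (0.80, SE 0.181, adjusted p = 0.0349). That call was lost without pair 2 (0.64, adjusted p = 0.155) and without pair 3 (0.95, adjusted p = 0.0652). Among plasma membrane glutamate transporters 1 of 4 was called. Slc1a6, the transporter known from Purkinje cells, was higher in 3 of 3 pairs, at 19.3 ± 1.98 CPM in DMSO and 38.4 ± 5.17 in GSK-126 (0.99, SE 0.148, adjusted p = 0.00601), with no overlap between groups, and it was called without any 1 pair. Purkinje cell markers summed to between 16.0 and 21.0 CPM in DMSO and between 15.7 and 29.2 CPM in GSK-126, with 0 of 3 tested markers called. The astrocyte transporters Slc1a3 (-0.23, adjusted p = 0.257) and Slc1a2 (-0.13, adjusted p = 0.606) did not pass.

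**Figure D5:**
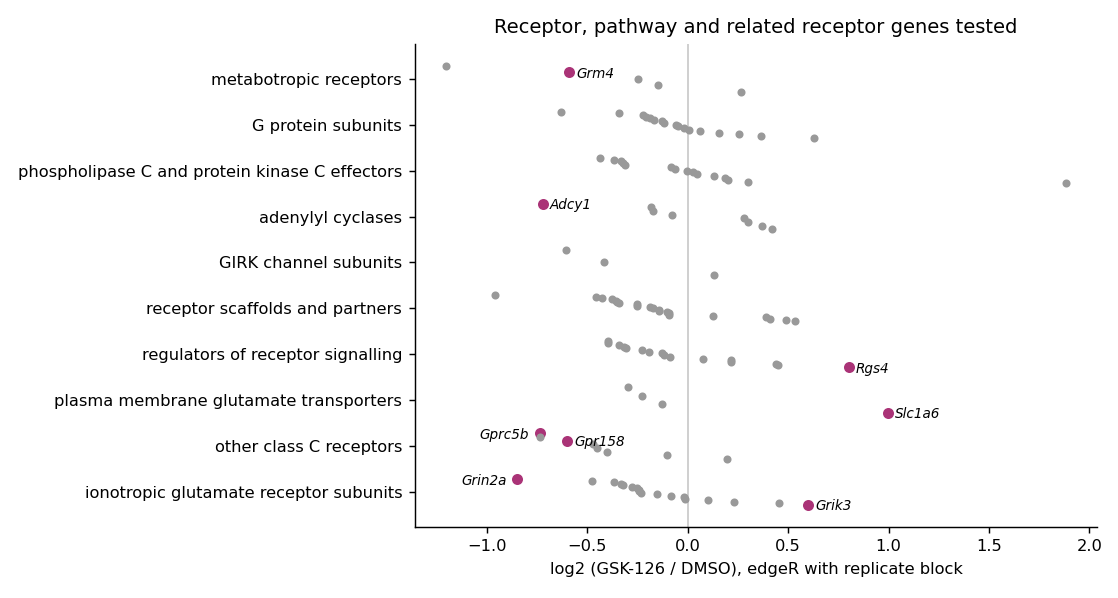
Log2 fold change with the replicate block (horizontal axis) of the 5 receptor genes tested, of the 83 pathway genes in 7 lists and of the related receptors in 2 lists, 1 point per gene. Larger coloured points with names are genes at an adjusted p below 0.05, which are Grm4, Adcy1, Rgs4, Slc1a6, Gprc5b, Gpr158, Grin2a and Grik3.

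Related receptors were examined in the same fit. In it 1.42% of all genes tested were called lower and 2.23% higher, with a median log2 fold change of -0.00. Of 8 other class C receptors tested, 2 were lower with the block and 0 higher, with a median log2 fold change of -0.46 against -0.25 for the metabotropic genes. They were Gprc5b (-0.74, adjusted p = 0.0306) and Gpr158 (-0.60, adjusted p = 0.0110). The GABA-B receptor subunits Gabbr1 (-0.10, adjusted p = 0.683) and Gabbr2 (-0.40, adjusted p = 0.0535) did not pass. Of 18 ionotropic glutamate receptor subunits 1 was lower, the NMDA receptor subunit gene Grin2a (-0.85, adjusted p = 0.0308), and 1 was higher, the kainate receptor subunit gene Grik3 (0.60, adjusted p = 0.0449), with a median of -0.24. These 4 calls were lost without pair 2 (adjusted p = 0.179, 0.0825, 0.0658 and 0.225 for Gprc5b, Gpr158, Grin2a and Grik3), and that of Gpr158 also without pair 3 (adjusted p = 0.0565). The differences between these lists and the metabotropic genes were not tested.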

How the data were processed

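Poly(A) RNA was sequenced as paired-end reads. Per the labels and the study's methods, the authors trimmed reads with Trimmomatic 0.38, aligned them with STAR 2.7.2b to mm10 (GRCm38), and HTSeq then gave the reads over the exons of each gene. The deposited values were raw read counts per gene symbol, 1 table per library, without normalization. Rows naming no gene (58.4% to 60.9% of reads or fragments) were left out, and multiply aligned reads were not assigned to genes by default in that tool. Intervals and floors were computed from the counts alone, so they cover counting error only. The reads carried no molecular identifiers.

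Counts were filtered with filterByExpr (minimum count 10), scaled by TMM and compared in edgeR 4.0.16 by its quasi-likelihood test (legacy=TRUE, robust=FALSE) on treatment alone, two-sided, with Benjamini-Hochberg adjustment over 16343 genes and a threshold of 0.05. The replicate number was then added as a block, since same-numbered libraries correlated in their deviations (0.351, 0.503 and 0.517; other combinations -0.411 to -0.01) and the methods define a replicate by its pooled litters. DESeq2 1.42.0, other size factors, no filter and left-out replicates were alternatives. Lengths and coordinates came from GENCODE M21, promoters from RefSeq, and primers from the study's supplementary primer list. The fits were tested on simulated data.

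The members and gene lists were chosen with earlier results of these data known. Named genes were the 7 receptors, list genes past the threshold, chosen partners and the 3 most abundant of each list, of which those that bear on the receptors are given, and the 3 genes most like each receptor. A further member of the family is not reported here. GSK-126 and DMSO libraries were grouped by the labelled agent.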

Additional observations from a re-analysis of the deposited data

How the results depend on the processing

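With treatment as the only term 0 receptor genes, 0 pathway genes and 0 of all genes were called. With the replicate block these counts were 1, 3 and 597, with DESeq2 they were 0, 1 and 59, with DESeq2 and the block 1, 5 and 674, and without a filter on low counts 0, 1 and 85. Other size factors gave 0 for all. Leaving out each replicate gave 0 to 1 receptor genes, 0 to 8 pathway genes and 0 to 704 genes in all, where the values above 0 came from fits with the block (704, 178 and 359 genes without pairs 1, 2 and 3). The paired fit thus changed the call of 1 receptor gene, Grm4, whose log2 fold change kept its sign in 15 of 15 alternatives (-1.08 to -0.09). Grm7 (-1.67 to -0.85) and Grm8 (0.02 to 0.55) also kept their sign, in 15 and 14 alternatives, and stayed above the threshold wherever an adjusted p was given. DESeq2 with the block gave none for either, and Grm8 did not pass the filter in the fit with the block without pair 1. Grm3 and Grm5 did not: Grm3 ran from -0.70 to 0.19 and was positive at 0.01 and 0.19 without 1 library, and Grm5 ran from -0.42 to 0.053 and was positive at 0.01, 0.053 and 0.01 without 1 library and at 0.02 with the block without pair 1. The cause was not tested. A fit that leaves 2 libraries in a group assumes that they vary like the 3 of the other. Counts of Grm2, Grm6, Grm7 and Grm8 were at most 31 per library, so that counting error limits what can be detected for them at this depth.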
